A study of Mus musculus with 22 samples.

Results

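The 10 genes described here build the cornified envelope, the crosslinked protein shell of terminally differentiated squamous cells. They are Lor, Rptn, Hrnr, Sprr3, Lce1j, Lce3a, Cnfn and Krtdap, and the crosslinking enzymes Tgm1 and Tgm3. They were picked by symbol among 15971 genes of the lung table, all 10 were found there, and 2 of them (Lor and Tgm1) are among the 12259 genes of the liver table. They were picked because their levels in benzene lungs were above those in air lungs, so that difference is given below as a description without a test. The samples came from male mice of C57BL/6J background, 14 weeks old, that inhaled benzene at 50 ppm for 6 hours on 5 days of each week over 6 weeks, or breathed air purified by carbon and HEPA filters. Poly-A RNA of lung (6 benzene and 6 air libraries) and of liver (5 benzene and 5 air libraries) was sequenced. Levels are the deposited normalized read counts headed CPM. Each is a whole number of reads times 1 factor per library, and the factors reflect more than depth. Lung libraries held 8.40 to 10.02 megareads (M) with benzene and 8.30 to 11.92 M with air.

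In stratified squamous epithelia such as epidermis, oral mucosa and oesophagus, the upper cell layers make loricrin, small proline-rich proteins, late cornified envelope proteins and large S100-fused-type proteins. Transglutaminases join these proteins under the plasma membrane by isopeptide bonds between glutamine and lysine side chains. Many of the precursor genes lie side by side in the epidermal differentiation complex. The alveoli and conducting airways of a mouse lung are lined by simple and pseudostratified epithelia, which do not normally cornify.

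The promoters are shown so that the start regions of the genes can be compared, with Lor and Krtdap in full because they hold TGAGTCA. They are RefSeq sequences of GRCm38.p6, matched by symbol for all 10 genes, written 5′ to 3′ and ending at the base before the transcription start. Capitals mark TATAA or ATAAA on the sense strand 45 to 21 bases before the start and, in the longer windows, TGANTCA and CACCC on either strand. Where TATAA is followed by A the first pair of motifs overlap. For Tgm1, Krtdap and Tgm3 the RefSeq start differs from that of the GENCODE M21 annotation used for gene coordinates below. The windows of Tgm1 and Krtdap therefore reach into the spans given for those genes. The Lor window is chr3:92083143-92083392 on the minus strand and the Krtdap window is chr7:30787655-30787904 on the plus strand, 250 bases each.
Lor: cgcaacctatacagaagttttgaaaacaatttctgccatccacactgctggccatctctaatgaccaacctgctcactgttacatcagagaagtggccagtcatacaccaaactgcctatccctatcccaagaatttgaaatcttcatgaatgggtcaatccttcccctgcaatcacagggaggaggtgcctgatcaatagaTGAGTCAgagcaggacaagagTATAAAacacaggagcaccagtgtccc
Krtdap: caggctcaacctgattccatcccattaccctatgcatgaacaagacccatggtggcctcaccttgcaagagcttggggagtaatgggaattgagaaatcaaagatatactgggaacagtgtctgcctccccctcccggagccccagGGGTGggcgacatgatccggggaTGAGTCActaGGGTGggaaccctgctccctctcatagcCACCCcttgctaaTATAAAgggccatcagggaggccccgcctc
The last 50 bases before the start are shown for Lce3a and Tgm1, which hold ATAAA without TATAA, and for Tgm3, which holds both. They are chr3:92926231-92926280 for Lce3a and chr14:55713493-55713542 for Tgm1, both on the minus strand, and chr2:130012290-130012339 on the plus strand for Tgm3.
Lce3a: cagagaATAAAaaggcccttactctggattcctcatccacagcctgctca
Tgm1: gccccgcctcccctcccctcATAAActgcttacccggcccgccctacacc
Tgm3: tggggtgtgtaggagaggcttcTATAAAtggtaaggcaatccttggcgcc

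TATAA stood in that window in 7 of the 10 promoters, against 4.01% of 27025 promoters with 1 entry per gene. Lce1j, Lce3a and Tgm1, which lacked it, held ATAAA there, so that all 10 held 1 or both of these motifs, against 6.49% of all promoters. ATAAA was added to the search after these promoters had been read, so that count is no support for a shared element. TGANTCA, which includes the letters of an AP-1 site (TGAGTCA), stood in the 250 bases of Lor, Rptn and Krtdap (3 of 10, against 6.87% of all promoters). The match was TGAGTCA in Lor and Krtdap and TGATTCA in Rptn. CACCC, the core letters of Krüppel-like factor sites, was found in 8 of 10 and in 51.3% of all promoters. The motifs are not particular to the 10 genes. In 65 promoters of other envelope pathway genes, listed below, TATAA stood in 17 and 1 or both of TATAA and ATAAA in 33. TGANTCA stood in 19 of the 65 and CACCC in 24. All of these are matches of letters and no binding was measured.

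Replicate 5 of the air lungs differed from all other lung libraries in ways that involve no group comparison. Its normalized values summed to 1.325 M, against 0.937 to 1.01 M in the other 11 lungs, so its CPM are raised relative to plain reads per library. It had 894 genes without a read, against 17 to 61 in the other 5 air lungs and 13 to 28 in the benzene lungs. Values for the 10 genes are given with and without it. By plain share of reads the 10 genes were at 0.0138% in it, against up to 0.013% in the other air lungs. In bulk tissue, fewer cells of a type and less RNA per cell cannot be told apart. The labels number the samples without saying that each is a separate animal, so p-values measure the spread between samples, which may be technical.

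The 10 genes together made up 0.132% to 0.177% of the reads of each benzene lung and 0.00944% to 0.0138% of the reads of each air lung. Their summed level was 1456 ± 192 CPM in benzene lungs and 124 ± 31.5 CPM in air lungs (SD, n = 6 each), or 112 ± 14.3 CPM in the 5 air lungs without replicate 5. For each of the 10 genes, the lowest benzene lung lay above the highest air lung. By the test across all genes given below, 3.38% of lung genes were called higher and 2.29% lower, or 7.66% and 7.08% without air replicate 5. These are shares of calls, and the share of all lung genes without overlap was not counted. The genes were chosen on this difference, so nothing is read from the lack of overlap.

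**Figure D1:**
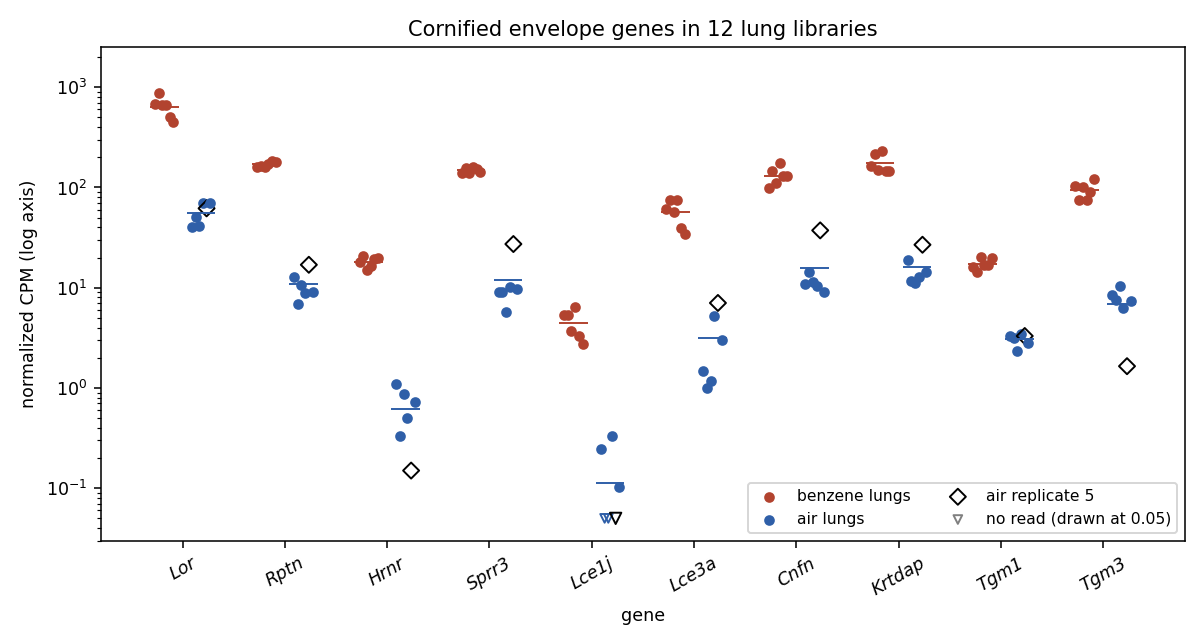
Normalized CPM on a log axis of the 10 genes in each of 6 benzene lungs (left of each pair) and 6 air lungs (right). Horizontal lines are means, diamonds mark air replicate 5 and open triangles mark libraries without a read. The groups do not overlap for any of the 10 genes, which were chosen on this difference. Air replicate 5 is the highest air lung for Sprr3, Cnfn, Krtdap, Rptn and Lce3a and the lowest for Tgm3 and Hrnr.

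Lor encodes loricrin, the most abundant protein of the epidermal envelope. It is a gene of 2 exons at chr3:92080271-92083142 (GRCm38, minus strand). Its level ranged from 446 to 879 CPM with a median of 667 in benzene lungs, and from 40.7 to 69.8 CPM with a median of 56.1 in air lungs. The benzene level was 11.5-fold the air level (log2 change on log2(CPM + 1) of 3.50 ± 0.18, SE), and 11.8-fold without air replicate 5. Lor was the most abundant of the 10 genes per kilobase of exon, at 359 ± 86.2 CPM per kb in benzene lungs and 31.2 ± 7.51 CPM per kb in air lungs. It varied within the benzene group more than most of the 10 genes, with replicate 2 high and replicates 5 and 6 low.

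Rptn (repetin) and Hrnr (hornerin) are large S100-fused-type proteins of the same family as filaggrin. Their genes lie on the plus strand at chr3:93393699-93399442 and chr3:93319749-93333570. Rptn ranged from 160 to 183 CPM with a median of 167 in benzene lungs and from 6.82 to 16.9 CPM with a median of 9.92 in air lungs. Its benzene libraries were close to each other, with a coefficient of variation (CV) of 5.90%, and the log2 change was 3.90 ± 0.16, or 4.03 ± 0.11 without air replicate 5. Hrnr ranged from 15.1 to 20.9 CPM with a median of 18.7 in benzene lungs and from 0.15 to 1.10 CPM with a median of 0.609 in air lungs. The air values of Hrnr rest on 1 to 9 reads per library and 35 reads in all. Its mean in benzene lungs was 29.8-fold its mean in air lungs, or 25.9-fold without air replicate 5, while the change on log2(CPM + 1), a scale that understates changes near 0, was 3.60 ± 0.16. Per kilobase of exon Hrnr was the lowest of the 10 genes in benzene lungs (1.63 ± 0.195 CPM per kb) and in air lungs (0.0547 ± 0.0314 CPM per kb).

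Sprr3 (chr3:92456502-92458720, minus strand), a small proline-rich protein that bridges other envelope proteins and is typical of oesophagus and oral epithelium, ranged from 141 to 159 CPM with a median of 147 in benzene lungs. In air lungs it ranged from 5.73 to 27.3 CPM with a median of 9.40. Replicate 5 was the high air lung (20.6 per 1000000 reads without the extra scaling, against up to 10.3 in the other air lungs), and without it the other 5 ranged up to 10.2 CPM. The log2 change was 3.70 ± 0.25 with all libraries and 3.96 ± 0.11 without air replicate 5. Sprr3 had the smallest CV of the 10 genes in benzene lungs, 5.48%.

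The late cornified envelope genes encode short cysteine-rich proteins that are incorporated late. Lce1j lies at chr3:92788840-92790514 and Lce3a at chr3:92925287-92926230, both on the minus strand. Lce3a ranged from 34.7 to 74.8 CPM with a median of 59.5 in benzene lungs and from 1.01 to 7.05 CPM with a median of 2.22 in air lungs. Its log2 change was 3.96 ± 0.34, or 4.19 ± 0.25 without air replicate 5. Lce1j ranged from 2.76 to 6.38 CPM with a median of 4.51 in benzene lungs. In air lungs it had no read in replicates 2, 3 and 5, and at most 0.332 CPM, or 4 reads, elsewhere. A library without a read allows up to 3 reads by counting error. Its log2 change was 2.26 ± 0.19, and its benzene mean was 39.5-fold its air mean, a ratio that rests on 7 reads in air lungs. Of 100-base stretches of Lce1j, 2.65% also occur in other Lce1 genes, so some of its reads could belong to them.

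Cnfn encodes cornifelin, a minor envelope component, and Krtdap a small secreted protein of differentiating keratinocytes. Both lie on chromosome 7, Cnfn at chr7:25367620-25369724 (minus strand) and Krtdap at chr7:30787896-30791097 (plus strand). Cnfn ranged from 99.2 to 174 CPM with a median of 131 in benzene lungs and from 9.16 to 37.3 CPM with a median of 11.2 in air lungs. The high air value was again replicate 5 (28.2 per 1000000 reads without the extra scaling, against up to 14.4 in the other air lungs), and the other 5 air lungs lay at 14.3 CPM or below. The log2 change of Cnfn was 3.15 ± 0.27, or 3.43 ± 0.12 without that library. Krtdap ranged from 145 to 231 CPM with a median of 156 in benzene lungs and from 11.3 to 26.8 CPM with a median of 13.6 in air lungs. Its log2 change was 3.41 ± 0.20, or 3.57 ± 0.14 without air replicate 5. Replicates 2 and 4 were the highest benzene lungs for both genes.

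Tgm1 is the membrane-anchored transglutaminase of keratinocytes and Tgm3 a soluble one that is activated by cleavage. Tgm1 lies at chr14:55700009-55713926 (minus strand) and Tgm3 at chr2:130012349-130050399 (plus strand). Tgm1 ranged from 14.5 to 20.4 CPM with a median of 16.8 in benzene lungs and from 2.33 to 3.48 CPM with a median of 3.21 in air lungs. Its groups were tight and air replicate 5, at 3.30 CPM, lay among the other air lungs. The benzene mean was 5.71-fold the air mean (log2 change 2.18 ± 0.12), or 5.80-fold without air replicate 5, the smallest fold of the 10 genes. Of its 100-base stretches 3.05% also occur, in either orientation, in the gene Gm49067. Whether reads were counted by strand is not stated, so some of its reads are uncertain. Tgm3 ranged from 75.6 to 122 CPM with a median of 95.3 in benzene lungs and from 1.65 to 10.4 CPM with a median of 7.45 in air lungs. Here air replicate 5 was the low library, and the other 5 air lungs were at 6.30 CPM or above. The log2 change of Tgm3 was 3.69 ± 0.28, or 3.40 ± 0.13 without it. Tgm3 was 5.42 ± 0.707 times Tgm1 in benzene lungs and 2.40 ± 1.29 times Tgm1 in air lungs, or 2.78 ± 0.994 times in the 5 air lungs without replicate 5.

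Whether the 10 genes kept constant ratios, as transcripts of a single tissue source would, was examined by their shares of their summed CPM. The order of levels per kilobase was nearly the same in both groups. It ran Lor, Krtdap, Cnfn, Sprr3, Lce3a, Rptn, Tgm3, Lce1j, Tgm1 and Hrnr by the means of the benzene lungs, and differed in air lungs only in that Tgm1 stood above Lce1j. Neighbours such as Sprr3 and Lce3a (122 ± 6.66 and 104 ± 31.1 CPM per kb in benzene lungs) did not differ beyond their spread, and they changed places in benzene replicates 2 and 4.

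Shares of 8 of the 10 genes overlapped between benzene and air lungs. Lor made up 43.4 ± 5.40% of the sum in benzene lungs and 45.6 ± 8.69% in air lungs. Krtdap made up 11.9 ± 1.40% and Tgm3 6.67 ± 1.97% in benzene lungs, against 12.8 ± 2.85% and 6.29 ± 3.35% in air lungs. Overlap does not mean equal shares, and the other overlapping genes differed more in their means. The mean share in benzene lungs was 1.67 times that in air lungs for Lce3a, 1.34 times for Rptn and 1.15 times for Sprr3. It was 0.760 times for Cnfn and 3.18 times for Lce1j, which had few reads in air lungs. Air shares of Lce3a ran from 0.965% to 4.09%, against 2.79% to 4.69% in benzene lungs. The genes whose shares did not overlap were Tgm1 and Hrnr. Tgm1 took 0.827% to 1.59% of the sum in benzene lungs and 1.81% to 3.08% in air lungs. Hrnr took 1.03% to 1.58% in benzene lungs and 0.0822% to 1.03% in air lungs, where the lowest benzene and the highest air share lay next to each other. Without air replicate 5, Sprr3 joined them, at 8.88% to 11.9% in benzene lungs and 6.03% to 8.68% in the 5 air lungs.

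**Figure D2:**
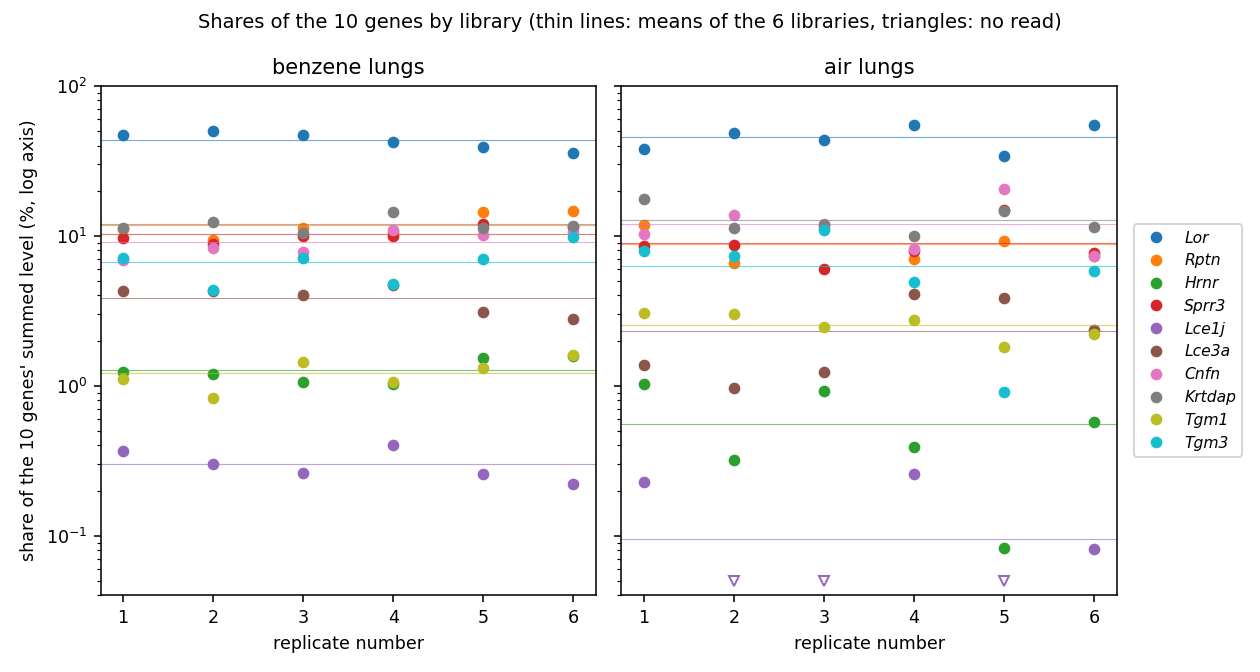
Share of each gene in the summed CPM of the 10 genes (percent, log axis) in 6 benzene lungs (left) and 6 air lungs (right), with thin lines at the group means and triangles for no read. Lor stays between 33.9% and 55.2% in all 12 lungs, while Tgm3 is at 0.904% in air replicate 5 and between 4.93% and 10.9% in the other air lungs.

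The folds of benzene over air ran from 5.71 for Tgm1 to 39.5 for Lce1j with a median of 13.1, and from 5.80 to 32.9 with a median of 14.8 without air replicate 5. The highest folds, those of Lce1j and Hrnr, rest on 7 and 35 reads in air lungs. Near the median lay Tgm3 at 13.6, Sprr3 at 12.5, Lor at 11.5 and Krtdap at 10.96. The keratins Krt4 and Krt13, the pair that forms the filaments of upper cell layers in oral and oesophageal epithelium, had log2 ratios of benzene over air means of 3.68 and 3.59, against 3.52 for Lor. Relative to the sum of these keratins, the summed level of the 10 genes was 0.496 ± 0.0757 in benzene lungs and 0.442 ± 0.0712 in the 5 air lungs without replicate 5. In air replicate 5 that ratio was 1.18.

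**Figure D3:**
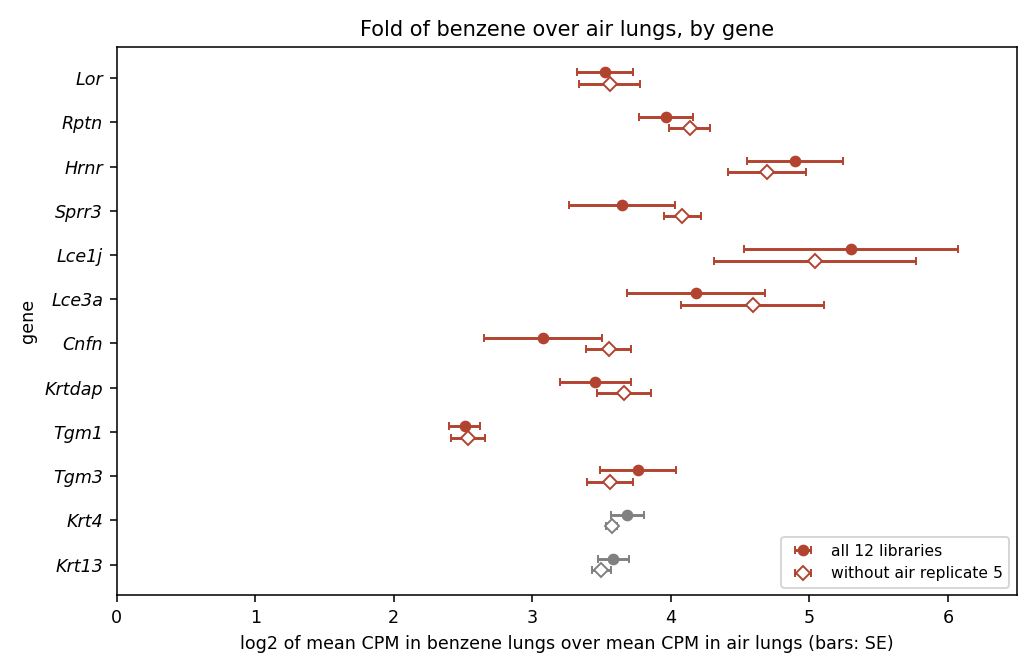
Log2 of the mean CPM in 6 benzene lungs over the mean CPM in air lungs for the 10 genes and for Krt4 and Krt13 (grey), with SE. Filled circles use all 12 libraries and open diamonds leave out air replicate 5. Tgm1 lies lowest at 2.51 ± 0.11, while Lor, Krtdap, Tgm3, Krt4 and Krt13 lie between 3.45 and 3.77 with all libraries.

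Within a group, shares of most of the 10 genes varied more than counting of reads alone would give. In benzene lungs the CV of a gene's share had a median of 18.3% over the 10 genes (11.1% for Sprr3 to 29.5% for Tgm3), where counting alone would give a median of 3.00%, and 9 of 10 genes were above 2 times their own counting value. In air lungs the median was 37.2%, or 27.5% without replicate 5, against 12.99% and 10.9% from counting, and 7 of 10 genes, or 6 of 10 without replicate 5, were above 2 times their counting value. Lce1j in benzene lungs was the gene within 2 times of counting, at 22.9% against 15.9%. Tgm1 in air lungs varied by 19.2%, where counting alone would give 18.9%, and without replicate 5 by 13.6%, below the 18.5% of counting. A share also moves with the other genes of the sum, of which Lor is the largest. Relative to the sum of Krt4 and Krt13, the CV in benzene lungs was 2.94% for Rptn and 6.13% for Sprr3. It was 26.1% for Lor and 33.7% for Lce1j, with a median of 18.6% over the 10 genes.

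The variation within benzene lungs had a pattern. Replicates 2 and 4 were the highest for Sprr3, Lce3a, Cnfn and Krtdap and the lowest for Tgm3, and replicates 5 and 6 were the lowest for Lor, Lce1j, Lce3a and Krtdap. Lor was 11.6 times Tgm3 in benzene replicate 2 and 3.66 times Tgm3 in replicate 6. By contrast, Rptn stayed between 1.05 and 1.27 times Sprr3 in all 6 benzene lungs, and between 0.621 and 1.86 times in the 6 air lungs. After subtracting group means, over 11 lung libraries without air replicate 5, the log2 level of Lor ran with that of the sum (Pearson's r = 0.93). Tgm3 ran against it (r = -0.83), and Rptn had r = -0.27. These are descriptions over libraries that share depth and preparation, and Lor itself makes up much of the sum.

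Transcript length was set beside this pattern, and the genes followed it in part. In replicates 2 and 4 over the other 4 benzene lungs, the log2 ratio of mean CPM + 1 was between 0.44 and 0.62 for Lor, Lce1j, Lce3a, Cnfn and Krtdap, whose merged exons span 0.549 to 1.78 kb. Sprr3, at 1.22 kb within that range of lengths, was at 0.13. It was -0.21 for Tgm1 and -0.45 for Tgm3, which span 3.16 and 4.13 kb, and -0.04 for Rptn, which spans 4.15 kb. Over all tested genes the median of that ratio was 0.20 below 1 kb and 0.19 from 1 to 2 kb. It was 0.06 from 2 to 4 kb, the class of Tgm1, -0.07 from 4 to 8 kb and -0.17 above 8 kb. Hrnr, the longest at 11.2 kb, was at 0.04. In air replicate 5 the same ratio over the other 5 air lungs was 1.26 to 1.65 for Lce3a, Sprr3 and Cnfn and 0.91 for Krtdap, but -0.18 for the short Lce1j and 0.19 for Lor. Rptn and Tgm3, of nearly the same length, were at 0.75 and -1.76, Tgm1 was at 0.10 and Hrnr at -0.57. Over all genes of air replicate 5 the medians by length class were 0.03, 0.19, 0.00, -0.08 and -0.19 from the shortest to the longest class. The part of transcript length or RNA quality in these ratios was not tested.

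**Figure D4:**
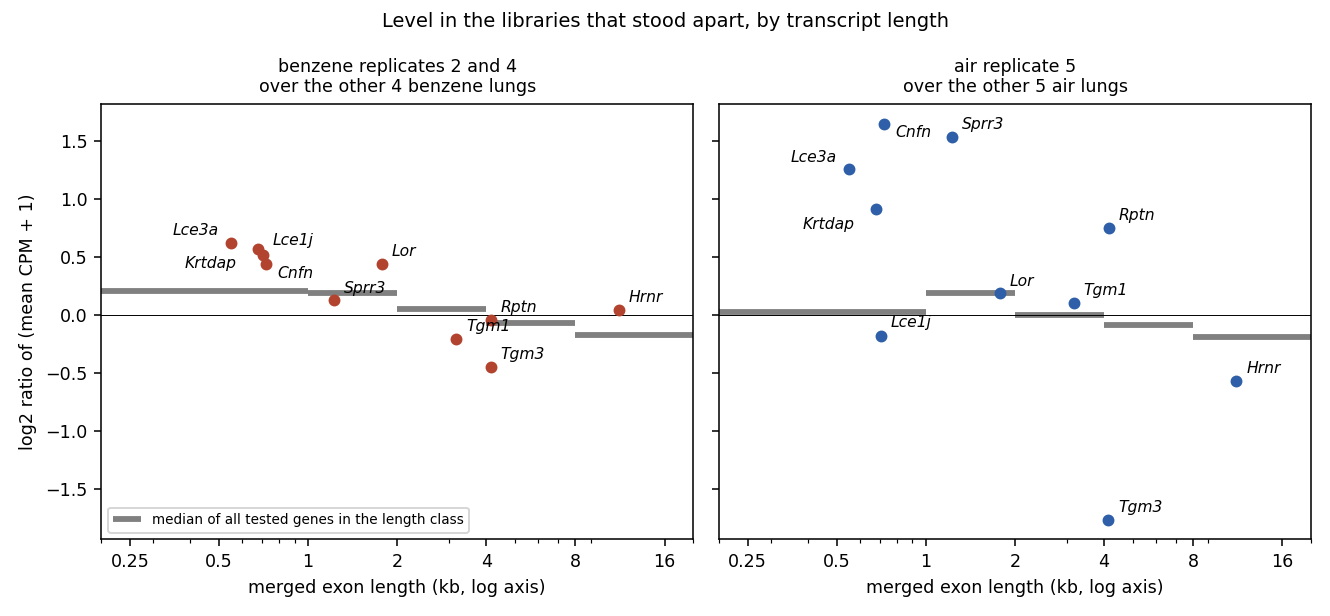
Log2 ratio of mean CPM + 1 in benzene replicates 2 and 4 over the other 4 benzene lungs (left) and in air replicate 5 over the other 5 air lungs (right), against merged exon length (log axis). Grey bars are medians of all tested genes in 5 length classes. The short Lce3a is at 0.62, and Tgm3 and Rptn, of nearly the same length, are at -0.45 and -0.04 on the left and at -1.76 and 0.75 on the right.

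The other genes of the envelope pathway were taken from lists of 80 genes, chosen with earlier results of these data known. Of these, 53 were in the lung table and all 53 were tested by limma-trend on log2(CPM + 1) with Benjamini-Hochberg adjusted p under 0.05 over 15706 genes. In benzene lungs 40 of the 53 rose and 0 fell, where 3.38% and 2.29% of all genes did. Without air replicate 5, 43 rose and 1 fell. By edgeR 39 rose and by DESeq2 43, and 0 fell by either. Of the 53, 18 had an air mean below the filter value of 1 CPM and entered the test through the benzene lungs, so that they could hardly be called lower. All 18 are among the 40, and 22 of the other 35 rose. Some of these 22, such as Sprr1a, Lce1a1, Cst6 and Cysrt1, were also below 1 CPM in part of the air lungs. The filter therefore bears on part of that count too. With the filter at 5, 28 of 39 rose. At an unadjusted p under 0.05 the count that fell was also 0 by limma-trend, edgeR and DESeq2.

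Of 42 other envelope precursors 23 were in the lung table, and 22 of them rose. Their median log2 change was 3.01, against 0.01 for all genes tested. Crct1, a cysteine-rich protein next to the Lce genes, was at 98.1 ± 24.01 CPM in benzene lungs and 8.34 ± 5.71 CPM in air lungs, or 6.11 ± 1.87 CPM without replicate 5 (adjusted p = 1e-06 by limma-trend). Sprr1a, another small proline-rich protein, was at 32.0 ± 3.00 CPM in benzene lungs and 1.94 ± 0.866 CPM in air lungs. Lce1a1 rose by 3.40 ± 0.26 and the Lce3 genes Lce3f, Lce3b and Lce3c by 3.59, 3.22 and 3.01 on the log2 scale, or by 3.98, 3.60 and 3.30 without air replicate 5. Of the 100-base stretches of Lce3c and Lce3f, 24.1% and 43.0% also occur in other Lce3 genes, so reads may be shared among them. The precursor that did not pass was Tchh, trichohyalin of the hair follicle sheath, at 5.18 ± 0.837 CPM in benzene lungs and 5.45 ± 1.47 CPM in air lungs (log2 change -0.04, adjusted p = 0.897). The other 19 precursors, among them Ivl, Flg, Flg2, Crnn and the Sprr2 genes, are not in the lung table used here.

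Of 8 other transglutaminase genes, 4 were in the lung table and 1 of them rose. That gene was Tgm5, a further epidermal transglutaminase, at 1.57 ± 0.434 CPM in benzene lungs and 0.244 ± 0.222 CPM in air lungs (log2 change 1.05 ± 0.18, adjusted p = 0.00189). It was below 1 CPM in all air lungs and entered the test through the benzene lungs, so it could hardly be called lower. Tgm2, the ubiquitous tissue transglutaminase, was at 355 ± 44.3 CPM in benzene lungs and 318 ± 72.2 CPM in air lungs (adjusted p = 0.478). F13a1, the factor XIII subunit found in macrophages and platelets, was at 26.7 ± 3.64 CPM in benzene lungs and 27.8 ± 6.97 CPM in air lungs (adjusted p = 0.904). Tgm4, known from prostate, was at 24.8 ± 1.59 CPM in benzene lungs and 25.8 ± 5.05 CPM in air lungs (adjusted p = 0.857). Of its 100-base stretches 35.0% are shared with other genes, so its level is uncertain.

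Of 10 genes of the scaffold under the envelope and of protease inhibitors, 8 were in the table and 5 rose. The plakins Evpl (envoplakin), Ppl (periplakin) and Dsp (desmoplakin) rose by 1.26, 1.05 and 0.85 on the log2 scale. Evpl, for one, was at 40.8 ± 1.62 CPM in benzene lungs and 16.7 ± 2.97 CPM in air lungs. The cystatins Csta1 and Cst6, inhibitors of cysteine proteases, rose by 2.80 and 1.46. Csta1 was below 1 CPM in all air lungs and entered the test through the benzene lungs. Anxa1, a membrane-binding annexin, was at 351 ± 29.4 CPM in benzene lungs and 324 ± 40.2 CPM in air lungs (adjusted p = 0.455). S100a11 was at 259 ± 22.2 CPM in benzene lungs and 314 ± 79.5 CPM in air lungs (adjusted p = 0.432), and it was called lower without air replicate 5 (log2 change -0.40, adjusted p = 0.00167).

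All 9 genes of late processing in the table rose, with a median log2 change of 1.96. The epidermal protease Asprv1 was at 215 ± 12.2 CPM in benzene lungs and 13.05 ± 2.37 CPM in air lungs (log2 change 3.96 ± 0.12, adjusted p = 3.22e-11). Dmkn (dermokine) was at 171 ± 15.5 CPM in benzene lungs and 45.2 ± 11.9 CPM in air lungs. Calml3, a calmodulin-like protein of epithelia, Spink5, an inhibitor of kallikreins, and Sbsn (suprabasin) rose by 1.89, 1.69 and 2.52 on the log2 scale. Cysrt1, a cysteine-rich protein, was at 16.6 ± 2.41 CPM in benzene lungs and 1.19 ± 0.878 CPM in air lungs. Of the 9 detected regulators of late differentiation, 3 rose. Grhl3, a grainyhead-like factor of barrier formation, was at 6.57 ± 1.85 CPM in benzene lungs and 0.545 ± 0.341 CPM in air lungs (adjusted p = 3.39e-06), and Grhl1 rose by 0.80. Grhl3 was below 1 CPM in all air lungs, so its direction was largely fixed by the filter. Trp63, the master factor of stratified epithelia, rose by 0.62 (adjusted p = 0.0481), a call lost in 9 of the 12 fits that left out 1 library. Without air replicate 5, 6 of the 9 rose. Klf4, which bronchial and many other cells also make, was at 142 ± 15.4 CPM in benzene lungs and 129 ± 24.2 CPM in air lungs (adjusted p = 0.446). Hopx, which alveolar type 1 cells make, was at 974 ± 130 CPM in benzene lungs and 948 ± 329 CPM in air lungs (adjusted p = 0.784).

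Of the 10 genes, 6 lie in the epidermal differentiation complex on chromosome 3, within 1319 kb from Lor to Rptn (chr3:92080271-93399442, GRCm38). That stretch holds 81 annotated genes, of which 31 are in the lung table. Of the 25 others in the table, 24 were tested, all 24 were called higher and 0 lower by limma-trend, where 3.38% and 2.29% of all genes were. Of these 24, 14 had an air mean below 1 CPM and entered the test through the benzene lungs, so their direction was largely fixed by the filter. Some of the remaining 10, among them Sprr1a, Lce1a1, Lce1a2 and Lce1c, were also below 1 CPM in part of the air lungs. The filter therefore bears on these genes too. The log2 changes of the 24 ran from 1.52 to 3.59 with a median of 2.98. Most of them are the Lce and Sprr genes already counted above. The stretch is bounded by Lor and Rptn, which were picked for being higher, so the count depends on where it ends. Beyond Rptn lie Tchh, S100a11 and S100a10, which did not pass with all libraries (log2 changes of -0.04, -0.23 and -0.24).

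**Figure D5:**
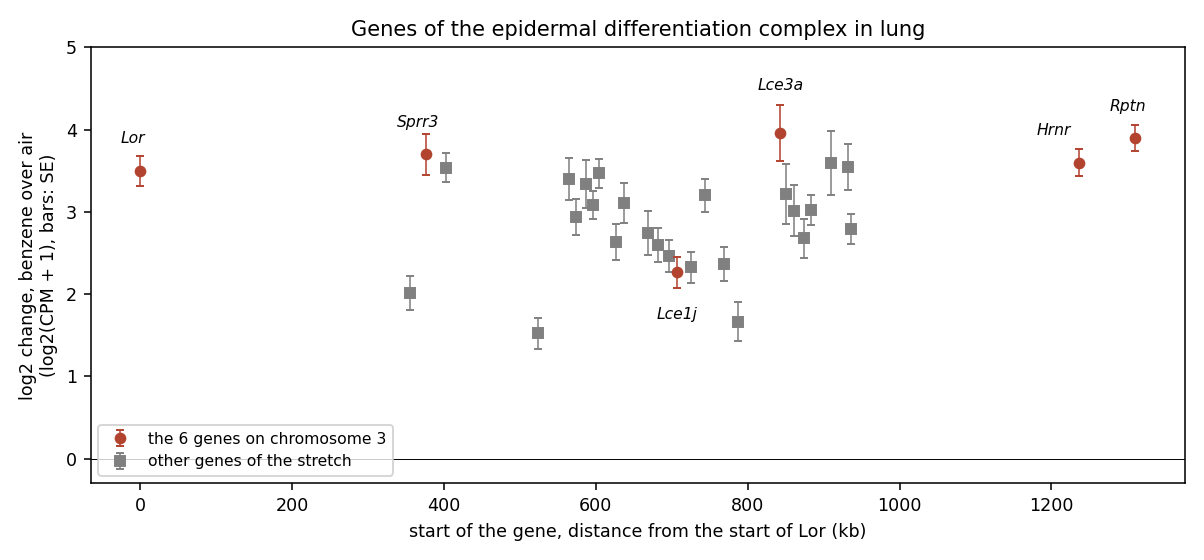
Log2 change of benzene over air lungs on log2(CPM + 1), with SE, of the tested genes between Lor and Rptn on chromosome 3, against the distance of their start from the start of Lor. Red circles are the 6 genes described here and grey squares the other 24, which lie between 1.52 and 3.59.

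Markers of other tissues were examined beside these levels. Of 5 basal squamous markers 5 rose, among them Krt5, at 80.9 ± 5.58 CPM in benzene lungs and 13.2 ± 4.19 CPM in air lungs, and Krt15 and Krt14. The call of the fifth, Trp63, is the one lost in most fits that left out 1 library. The summed level of this list was 185 to 199 CPM in benzene lungs and 54.1 to 67.8 CPM in air lungs. Of 7 markers of oral and oesophageal suprabasal layers 4 were in the table, 3 were tested and all 3 rose. Krt13 was at 1567 ± 83.3 CPM in benzene lungs and 131 ± 23.4 CPM in air lungs. Krt4 was at 1381 ± 50.2 CPM in benzene lungs and 107 ± 21.5 CPM in air lungs, and Krt78 rose by 3.60 on the log2 scale. Krt17, at 0.49 ± 0.355 CPM in benzene lungs and 1.65 ± 0.955 CPM in air lungs, was too low to be tested with all libraries. Without air replicate 5 it was called lower (log2 change -1.01, adjusted p = 0.00294 by limma-trend). It was below 1 CPM in all benzene lungs and entered that fit through the air lungs, so its direction was largely fixed by the filter. Krt6a, Krt6b and Krt16 are not in the table used here. That list summed to 2822 to 3191 CPM in benzene lungs and 157 to 276 CPM in air lungs. Of 6 markers of epidermal suprabasal layers, Krt1, Krt2, Krt77 and Krt76 are not in the table. Krt10 was at 5.42 ± 1.38 CPM in benzene lungs and 4.98 ± 3.47 CPM in air lungs (adjusted p = 0.635), and Dsg1a rose by 3.57. Dsg1a was below 1 CPM in all air lungs and entered the test through the benzene lungs. That list summed to 15.0 to 23.6 CPM in benzene lungs and 2.23 to 11.99 CPM in air lungs, or up to 6.79 CPM without air replicate 5. None of 10 hair keratins is in the table.

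Lists for skeletal and cardiac muscle also moved. Of 10 skeletal muscle genes 2 rose and 5 fell, with Myh8 at 215 ± 11.8 CPM in benzene lungs and 0.897 ± 0.586 CPM in air lungs, and Myh2 at 0.689 ± 0.338 CPM in benzene lungs and 107 ± 22.5 CPM in air lungs. Acta1 and Ckm were the other abundant ones of that list. Its sum was 1271 to 1526 CPM in benzene lungs and 1648 to 3271 CPM in air lungs, or up to 1800.3 CPM without air replicate 5. Of 8 cardiac muscle genes 0 rose and 6 fell, summing to 1107 to 1365 CPM in benzene lungs and 1935 to 2722 CPM in air lungs. Without air replicate 5, 6 of the skeletal and 8 of the cardiac genes fell. In 8 alveolar and airway genes, of which Scgb1a1, Sftpc and Sftpa1 were the highest, 0 rose and 0 fell by limma-trend. Their sums were 72703 to 101604 CPM in benzene lungs and 87878 to 190810 CPM in air lungs, or up to 106797 CPM without air replicate 5. Few or none of the other lists' genes passed: 0 of 3 for thymus, 1 of 2 for salivary and mucous gland (Muc5b, lower), 0 of 1 for thyroid, 0 of 2 for brown fat and 0 of 3 for hepatocytes. Without air replicate 5, 2 of the gland genes and 1 hepatocyte gene were lower. The part of other tissue in the lung samples in the levels of the 10 genes was not tested.

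The genes whose log2 level was most like that of the summed 10 genes over 12 lung libraries, among 10833 genes with a mean of at least 10 CPM, were Psapl1, Dmkn, Defb4, Nccrp1 and Lce1b, with Pearson's r from 0.990 to 0.995. Defb4, a beta-defensin of stratified epithelia, was at 38.4 ± 4.33 CPM in benzene lungs and 1.89 ± 0.726 CPM in air lungs. Psapl1, a saposin-like protein, was at 24.8 ± 2.42 CPM in benzene lungs and 2.82 ± 0.623 CPM in air lungs. This likeness follows mainly the difference between the groups. After subtracting group means and leaving out air replicate 5, the most alike genes were 1500011K16Rik, Snrpb, Tmem261, Ndufa8 and Rpl38-ps2, with r from 0.970 to 0.986 over 11 libraries. None of these 5 is an envelope gene, and their merged exons span 0.213 to 1.98 kb. With air replicate 5 included, their mean levels were lower in benzene than in air lungs. For 1500011K16Rik (26.2 ± 8.27 CPM in benzene and 42.7 ± 51.7 CPM in air lungs) that difference lay within the spread. The same holds for Rpl38-ps2 (14.7 ± 5.67 and 17.1 ± 11.5 CPM) and Tmem261 (25.2 ± 4.67 and 34.8 ± 15.7 CPM).

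In liver, where the choice of genes used no value, the 10 genes could be tested in part. Lor was at 0.897, 1.47, 2.18, 3.28 and 1.34 CPM in the 5 benzene livers and at 1.05, 2.70, 1.13, 1.96 and 0.551 CPM in the 5 air livers. The groups overlapped, and the log2 change was 0.20 ± 0.26 (adjusted p = 0.813 by limma-trend). Tgm1 was at 11.5, 13.6, 11.1, 14.3 and 10.95 CPM in benzene livers and at 11.2, 12.3, 14.6, 17.2 and 13.4 CPM in air livers. Its log2 change was -0.14 ± 0.13 (adjusted p = 0.699), again with overlapping groups. Of these 2 and 10 listed pathway genes tested in liver, 0 were called in either direction by limma-trend, by edgeR and by DESeq2, where 0.819% and 0.735% of all liver genes were called higher and lower. At an unadjusted p under 0.05, 2 were higher by limma-trend, the factor XIII subunit gene F13b (0.23 ± 0.10, adjusted p = 0.331) and Anxa1 (0.66 ± 0.27, adjusted p = 0.289). The other 8 of the 10 genes are not in the liver table used here.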

How the data were processed

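The deposited tables hold 1 normalized signal per gene and library, headed CPM by the authors. All values (100%) are whole reads, within 0.01, over 1 factor per library. Per the submitters' processing notes, fastp 0.20.0, STAR, edgeR 3.10 and build GRCm38 were used, and no header or label names the read counter. The authors' means, changes and p-values, 4 columns in either table, were not used. Reads carry no molecular identifiers, so floors and counting CVs cover counting error only. Exon lengths came from GENCODE M21, matched for 15955 of 15971 lung genes.

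Genes at 1 or more in 6 lung or 5 liver libraries (as many as the smaller group when libraries were left out) were compared on log2(value + 1) by limma-trend (limma 3.58.1, R 4.3.3), two-sided, with Benjamini-Hochberg adjustment over all tested genes, and the test was tried on simulated data. The plan named this test for values other than raw counts. Alternatives were a pseudocount of 0.1, no filter, a filter at 5, TMM and DESeq2 scaling, edgeR 4.0.16, DESeq2 1.42.0, a replicate block and leaving out libraries. The CV that counting gives is the root of the mean over libraries with reads of (1 - share) over the gene's reads. The genes, lists and rules were chosen with earlier results of these data known. The rule for named genes takes the 10 genes, all other detected transglutaminases, up to 6 passing and 2 not passing genes per pathway list by mean level, up to 3 markers per list, and 5 alike genes per measure. Length classes, plain scaling to total reads, ATAAA and the genes of the chromosome 3 stretch were chosen after the data were seen. Replicate numbers do not pair the samples.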

Additional observations from a re-analysis of the deposited data

Results flagged for a closer look

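Air replicate 5 lay far from the other 5 air lungs for 2 of the 10 genes. Sprr3 was at 27.3 CPM in it, where the others ranged from 5.73 to 10.2 CPM, and Cnfn was at 37.3 CPM, where the others ranged from 9.16 to 14.3 CPM. Among 26 sets of libraries examined, these 2 had a gap above Dixon's critical value, which chance exceeds in about 1 in 20. Scaled to plain reads per 1000000 reads, replicate 5 was at 20.6 for Sprr3 and 28.2 for Cnfn, and the others reached 10.3 and 14.4. The same library had 894 genes without a read, the highest of the 12 lungs, and its part in these values was not tested.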

How the results depend on the processing

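All 209 alternative values of the 10 genes' lung changes stayed above 0, from 2.05 to 5.17 on the log2 scale, and 9 of them, for Hrnr, Lce1j and Tgm1 with a pseudocount of 0.1, edgeR or DESeq2, moved by at least the SD between replicates. The count of other pathway genes higher in benzene lungs was 28 to 44 under all alternatives, 39 to 43 when 1 library was left out, and 38 with the replicate block. The lower count was 0 to 1 when 1 library was left out (1, S100a11, without air replicate 5), and 1 with air 5, benzene 2 and benzene 4 left out together, an alternative chosen after the data were seen. The liver count stayed at 0 in all alternatives, the replicate block included. The spread of the 10 changes (SD 0.63) was 0.60 to 0.68 when 1 library was left out. The median CV of shares was 16.2% to 19.7% in benzene and 27.5% to 41.7% in air lungs when 1 library was left out. With Krt4 and Krt13 as denominator the median was 18.6% in benzene lungs and 64.0% in air lungs, where air replicate 5 was high. Changes of genes that did not pass turned sign. Tgm4 ran from -0.086 to 0.055 when 1 library was left out (highest without air replicate 5), F13a1 from -0.13 to 0.073 (highest without air replicate 1) and Tchh from -0.13 to 0.033 (highest without air replicate 5). Without the 3 libraries Tgm4 was at 0.024 and Tchh at 0.042. Cst6 missed the threshold with the replicate block (adjusted p = 0.0834 by limma-trend). Replicate numbers do not pair samples: deviations of same-numbered lungs had correlations of -0.36 to 0.10, and 0 of 6 lungs correlated best with their own number. The block gave 271 higher and 143 lower lung genes, against 531 and 360, and DESeq2 gave 864 and 805. The air levels of Hrnr and Lce1j, 1 to 9 and 0 to 4 reads per library, limit their folds by depth.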
